A study of Mus musculus with 62 samples.

Results

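Cerebellum RNA was followed over the weeks after a mock injection in 20 sequencing libraries of female mice, 5 each at 2, 4, 6 and 8 weeks (wk). They were taken from a series of 62 libraries as the columns whose names carry the control code, with the week read as a number. The 42 others came from mice injected with cachectic melanoma cells (CAC, 22 libraries) or with non-cachectic melanoma cells (NCAC, 20 libraries), at the same 4 times. All mice were 2 months old at injection, so the age of the mock mice rose with the week, from 2 wk to 8 wk after that point. The labels do not settle the strain: the samples are given as C57BL6/J, but the design text of the series has NCI Ath/nude mice, athymic animals with few mature T cells. The treatment field conflicts with the groups, since it gives cachectic melanoma cells even for the mock samples, and the extraction text speaks of LLC cells, which the sample descriptions do not name. The groups used here follow the sample descriptions. What the mock injection contained is not given in the sources used here, and uninjected mice were not analysed here. Each week was a separate set of libraries, so age, time since injection and anything shared by one collection cannot be told apart. Replicates were described as biological, but the labels name no animals, so p-values measure the spread between libraries. In the gene tests below, that spread was pooled over all 12 groups, CAC and NCAC included. The p-values and SEs given there are thus not those of the mock libraries alone.

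The cerebellum is complete in its cell types before this age. Purkinje cells, granule cells and interneurons are then no longer produced, myelin made by oligodendrocytes is in place, and slow turnover of myelin and a gradual rise of immune genes are known from ageing brain. Interferons induce immunity-related GTPases and the MHC class I pathway, in which proteasome subunits cut peptides, TAP carries them into the endoplasmic reticulum, and a heavy chain bound to B2m shows them at the cell surface. MHC class II, with the invariant chain Cd74, is carried mainly by antigen-presenting cells such as B cells, border macrophages and activated microglia.

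Values were TPM, a length-scaled transcript level in which every library sums to 1e+06. The table keeps no sequencing depth, and no detection limit can be given. Mitochondrially encoded transcripts took 18.9% to 21.8% of the TPM in the mock libraries. Their share had a slope of 0.0847 percentage points per week (two-sided permutation test, p = 0.311). Pairs of mock libraries correlated at Pearson's r of 0.983 to 0.995 across genes, and no pair was identical. Markers of the cerebellum were high. The granule cell gene Gabra6 lay at 890.1 to 1148 TPM and the Purkinje cell gene Pcp2 at 449.6 to 541.3 TPM in the mock libraries. Forebrain markers were low, with Emx1 at 0 to 0.369 TPM and Tbr1 at 0.153 to 0.556 TPM. Some libraries stood apart. Mock replicate 5 at 8 wk was high in immunoglobulin and MHC class II transcripts, and mock replicate 1 at 6 wk less so. Mock replicate 5 at 2 wk held the pituitary hormones Gh and Prl at 45.9 and 64.5 TPM, and mock replicate 2 at 4 wk held them at 9.25 and 17.8 TPM, with a highest value of 0.625 TPM elsewhere. The choroid plexus transcript Ttr ranged from 13.9 to 6258 TPM.

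The main question was which genes drifted steadily. For each of 14399 genes the slope of log2(TPM + 1) on week was fitted over the mock means, within a limma model of all 12 groups, and is given as the fitted log2 change between 2 and 8 wk with its standard error (SE). The cerebellum after a mock injection was nearly flat on this measure. The median change was -0.02, and 92.0% of the genes had changes below 0.2 in size, while the median SE of a change was 0.066. At an adjusted p under 0.05 (Benjamini-Hochberg over all genes), 6 genes passed, 0.0417% of those tested. Tgtp1 and H2-T22 rose (0.0139% of those tested), and Mkrn3, Pcdhb7, Dgkd and Aagab fell (0.0278%). All 6 had the same adjusted p, 0.0454, close to the threshold. None of the 6 was called without mock replicate 5 at 8 wk, when their adjusted p lay between 0.116 and 0.319, nor without any one of replicates 2, 3 and 4 at 2 wk, 1 and 3 at 4 wk, 1 and 2 at 6 wk or 1 and 3 at 8 wk. None was called in a fit on the mock libraries alone. With week as a number in that limma fit, their adjusted p ran from 0.0892 for Aagab to 0.308 for Tgtp1. Their directions were the same in each alternative that was run.

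Tgtp1 encodes an interferon-induced GTPase of T cells and other cells. It lies at chr11:48985327-48994172 on the minus strand (GRCm38, the mm10 build). Its levels were 0.865, 1.45, 0.706, 0.837 and 1.60 TPM at 2 wk, and 0.585, 1.17, 0.657, 0.902 and 0.239 TPM at 4 wk. They were 3.02, 2.50, 1.54, 0.847 and 1.07 TPM at 6 wk, and 4.30, 1.97, 1.74, 1.43 and 7.11 TPM at 8 wk. The highest values stood at 8 wk, in replicates 5 and 1, but the 8 wk and 2 wk groups overlapped. The fitted change was 1.01 ± 0.216 (SE), which understates the change of so low a gene. Tgtp2, a near-identical neighbour whose reads may be shared with it, had a change of 0.90 ± 0.248 without passing the test (adjusted p = 0.227), and of 0.53 without replicate 5 at 8 wk. The sum of Tgtp1 and Tgtp2 averaged 2.02 ± 0.246 TPM at 2 wk, 1.48 ± 0.834 TPM at 4 wk, 3.05 ± 1.29 TPM at 6 wk and 6.78 ± 6.16 TPM at 8 wk (SD, n = 5 each).

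H2-T22, a non-classical MHC class I gene at chr17:36037128-36042747 on the minus strand, showed less scatter. It was at 13.3, 11.999, 11.3, 11.4 and 12.5 TPM at 2 wk and at 14.8, 16.9, 13.3, 14.7 and 13.2 TPM at 4 wk. It was at 15.8, 17.1, 13.1, 14.5 and 14.3 TPM at 6 wk and at 15.1, 14.6, 18.6, 14.2 and 18.8 TPM at 8 wk. Each 8 wk library lay above each 2 wk library, and most of the step was already present at 4 wk. The change was 0.36 ± 0.074. Its neighbour H2-T10 is a close copy, and the sum of H2-T22 and H2-T10 averaged 13.5 ± 0.973 TPM at 2 wk, 16.5 ± 2.11 TPM at 4 wk, 16.4 ± 1.74 TPM at 6 wk and 18.2 ± 2.87 TPM at 8 wk (SD, n = 5 each).

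The 4 genes that fell did so by small amounts. Mkrn3, an imprinted gene for a makorin ring-finger protein known for holding back puberty, lies at chr7:62417593-62420139 on the minus strand. It was at 6.25, 6.14, 5.54, 5.81 and 7.26 TPM at 2 wk and at 5.28, 5.06, 7.02, 3.77 and 5.03 TPM at 4 wk. It was at 4.13, 5.84, 5.15, 6.09 and 4.54 TPM at 6 wk and at 4.20, 5.02, 3.63, 2.91 and 3.73 TPM at 8 wk. The 8 wk libraries all lay below the 2 wk libraries, and the change was -0.51 ± 0.108, the largest of the 4. Genes of the same imprinted domain had changes near 0, -0.05 ± 0.053 for Ndn and 0.00 ± 0.028 for Snrpn, and neither passed the test.

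Dgkd, the diacylglycerol kinase delta gene at chr1:87853287-87945180 on the plus strand, was the most abundant of the called genes. It was at 158.6, 153.2, 159.2, 162.9 and 164.8 TPM at 2 wk and at 158.4, 136.7, 163.5, 211.1 and 156.6 TPM at 4 wk. It was at 134.3, 139.5, 142.5, 150.6 and 145.4 TPM at 6 wk and at 122.5, 146.4, 129.7, 131.3 and 134.4 TPM at 8 wk. The 2 early weeks lay above the 2 later ones apart from replicate 2 at 4 wk, and the change was -0.30 ± 0.058. Several annotated genes, among them Usp40 on the other strand, overlap it.

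Pcdhb7, a clustered protocadherin that gives neurons part of their surface identity, averaged 7.84 ± 0.688 TPM at 2 wk, 7.63 ± 0.934 TPM at 4 wk, 6.09 ± 0.547 TPM at 6 wk and 6.197 ± 0.656 TPM at 8 wk (SD, n = 5 each). Its change was -0.35 ± 0.074, and its highest 8 wk library, at 6.99 TPM, lay below its lowest 2 wk library, at 7.21 TPM. The beta protocadherin cluster was gathered as a family after the values were seen, so its counts are not independent of the call of Pcdhb7. Of its 21 tested genes, 17 had a negative slope and 5, Pcdhb7 among them, had an unadjusted p under 0.05. The median change was -0.07 in mock and -0.03 in NCAC. Over all genes, 58.4% had a negative slope, and 5.91% had one with an unadjusted p under 0.05. Pcdhb6 was next to it in value, at -0.32 ± 0.090, and did not pass the test (adjusted p = 0.24). Aagab, a chaperone for the assembly of clathrin adaptors at chr9:63602660-63644588 on the plus strand, averaged 83.9 ± 2.39 TPM at 2 wk, 81.0 ± 2.88 TPM at 4 wk, 74.5 ± 3.82 TPM at 6 wk and 73.4 ± 3.92 TPM at 8 wk (SD, n = 5 each). Its change was -0.21 ± 0.044. Its 8 wk libraries reached 78.9 TPM, and its 2 wk libraries started at 79.7 TPM.

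**Figure D1:**
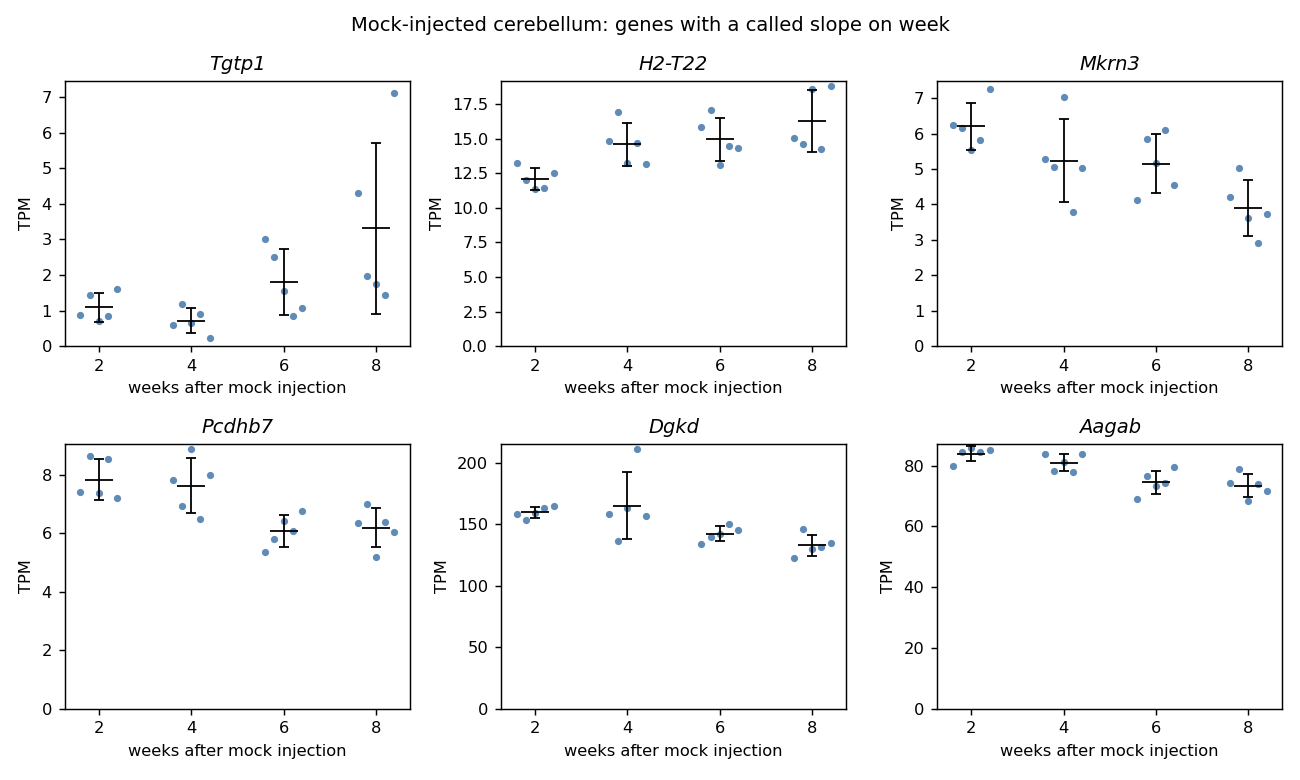
TPM of the 6 genes with a called slope on week, with one point per mock library against weeks after mock injection (replicates 1 to 5 from left to right) and bars for the mean ± SD of 5. Tgtp1 is spread widely at 8 wk, from 1.43 to 7.11 TPM, while for the other 5 genes the 8 wk and 2 wk points do not overlap.

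NCAC mice gave slopes from other animals, although the 2 sets of libraries share their weeks and possibly their collections. Their libraries also entered the estimate of spread behind the mock calls, so the tests are not independent. All 6 called genes had the same sign in NCAC, with smaller values. Mkrn3 had a change of -0.51 ± 0.108 in mock and -0.33 ± 0.108 in NCAC (unadjusted p in NCAC = 0.00335), and H2-T22 had 0.36 ± 0.074 in mock and 0.20 ± 0.074 in NCAC (unadjusted p in NCAC = 0.00932). Pcdhb7 had -0.35 ± 0.074 in mock and -0.03 ± 0.074 in NCAC (unadjusted p in NCAC = 0.656). The difference of the slopes was tested for each gene: 0 of 14399 passed, with a smallest adjusted p of 0.857 in limma, and 781 genes (5.42%) had an unadjusted p under 0.05. A slope of its own in mock mice was thus not shown for any gene. The 95% interval of the difference for Pcdhb7 was wide, -0.53 to -0.11 on the log2 scale. It excludes 0, but it is not adjusted for the number of genes tested, and the difference did not pass adjustment.

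Below the threshold, 1316 genes (9.14%) had an unadjusted p under 0.05 in mock, against 720 that chance would give, 465 with a positive and 851 with a negative slope. Of these 1316 genes, 75.4% had the same sign in NCAC, against 60.8% of all tested genes. In 289 genes the unadjusted p was under 0.05 in both with the same sign, and in 5 with opposite signs. Complete separation of the 8 wk and 2 wk groups was seen in 171 genes (1.19%), 80 higher (0.556%) and 91 lower (0.632%) at 8 wk.

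Antigen presentation and interferon genes had positive changes for the most part, and of those described below only Tgtp1 and H2-T22 passed adjustment. Of 9 tested MHC class I presentation genes, 8 had a positive slope with an unadjusted p under 0.05, against 3.23% of all genes. Their median change was 0.56, against -0.02 over all genes. Without the 8 wk groups the count was 0, with a median of 0.18. In NCAC the count was 2, against 3.76% of all genes with a positive slope there, with a median of 0.11. H2-K1, a classical heavy chain, was at 17.8, 22.3, 22.9, 26.1 and 26.9 TPM at 2 wk and at 19.1, 28.0, 20.9, 24.997 and 18.6 TPM at 4 wk. It was at 37.4, 26.0, 20.6, 23.1 and 21.3 TPM at 6 wk and at 38.7, 26.0, 42.7, 24.7 and 91.0 TPM at 8 wk. The values above 30 TPM were those of replicate 1 at 6 wk and replicates 1, 3 and 5 at 8 wk, and the other libraries at 8 wk lay within the range of 2 wk. The change of H2-K1 was 0.74 ± 0.179 (adjusted p = 0.129), and 0.47 without replicate 5 at 8 wk.

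B2m, the light chain of all class I molecules, repeated that pattern. It averaged 173 ± 23.4 TPM at 2 wk, 161 ± 34.3 TPM at 4 wk, 181 ± 35.3 TPM at 6 wk and 273 ± 102 TPM at 8 wk (SD, n = 5 each), where replicates 5 and 3 stood at 418.4 and 334.5 TPM. Its change was 0.58 ± 0.172 (adjusted p = 0.261). The peptide transporter gene Tap2 had less scatter, at 8.38 ± 0.452, 8.51 ± 1.15, 9.57 ± 1.98 and 10.7 ± 1.49 TPM over the 4 weeks in order (SD, n = 5 each; fitted change 0.32 ± 0.086, adjusted p = 0.219). In NCAC, H2-K1 and B2m had changes of -0.01 ± 0.179 and -0.01 ± 0.172, whereas Tap2 had 0.26 ± 0.086. The unadjusted p of the mock minus NCAC difference was 0.00453 for H2-K1, 0.0193 for B2m and 0.668 for Tap2, with an adjusted p of at least 0.857 for each.

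The interferon-induced genes varied by library as well as by week. Of 24 tested interferon response genes, 6 had a positive slope with an unadjusted p under 0.05 and 0 a negative one, against 3.23% and 5.91% of all genes, with a median change of 0.30. The count was 3 without replicate 5 at 8 wk and 0 without replicates 3 and 5 at 8 wk. The median was 0.10 without these 2 libraries, and ran from 0.20 to 0.54 with 1 library left out, the lowest without replicate 3 at 8 wk and the highest without replicate 5 at 2 wk. Without the 8 wk groups the median was -0.07 with 0 such genes, and without the 2 wk groups it was 0.96 with 21. Without replicate 5 at 2 wk and replicate 2 at 4 wk it was 0.58 with 17. For departure from a straight line, 9 of the 24 genes had an unadjusted p under 0.05 in limma, against 5.20% of all genes, and none passed adjustment. A slope is thus only a partial summary of this list. Igtp, an immunity-related GTPase, was at 2.39, 2.87, 2.55, 3.25 and 7.04 TPM at 2 wk and at 2.70, 3.72, 2.60, 2.40 and 1.70 TPM at 4 wk. It was at 5.38, 3.25, 2.81, 3.69 and 3.10 TPM at 6 wk and at 5.86, 4.65, 8.09, 3.44 and 12.1 TPM at 8 wk. The highest 8 wk libraries were replicates 5 and 3, and the highest 2 wk library was replicate 5, which also held the pituitary hormones. The change of Igtp was 0.77 ± 0.206 (adjusted p = 0.197). The related Irgm1 had 0.48 ± 0.131 (adjusted p = 0.227). Over 15 tested interferon-induced GTPases, a family gathered after their values were seen and including Tgtp1 and Tgtp2, all 15 had a positive slope, with a median change of 0.45 in mock and 0.10 in NCAC.

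Because Tgtp1 and H2-T22 were called and their pathway genes lay on the same side, the sequences just before their starts are shown with those of Igtp and B2m, the GTPase and class I genes described above. They are the 250 bases before the RefSeq start in GRCm38.p6, 5′ to 3′ on the gene's strand: chr11:48992247-48992496 (minus) for Tgtp1, chr17:36042743-36042992 (minus) for H2-T22, chr11:58199306-58199555 (plus) for Igtp and chr2:122147437-122147686 (plus) for B2m. Capitals mark matches, on either strand, to a motif made of GAAA, any 2 bases and GAAA again, the core of the interferon-stimulated response element, and to a motif made of TTC, any 3 bases and GAA, the core of the gamma-activated site, which reads alike on both strands.
Tgtp1: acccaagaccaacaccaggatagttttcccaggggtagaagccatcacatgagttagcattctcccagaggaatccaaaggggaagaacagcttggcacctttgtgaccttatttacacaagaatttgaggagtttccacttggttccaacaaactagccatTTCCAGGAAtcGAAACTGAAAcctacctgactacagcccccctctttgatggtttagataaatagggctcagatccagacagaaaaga
H2-T22: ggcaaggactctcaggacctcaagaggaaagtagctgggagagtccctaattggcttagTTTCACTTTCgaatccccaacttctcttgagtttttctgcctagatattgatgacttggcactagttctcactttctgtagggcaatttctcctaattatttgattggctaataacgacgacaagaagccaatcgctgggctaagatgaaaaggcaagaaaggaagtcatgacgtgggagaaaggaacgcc
Igtp: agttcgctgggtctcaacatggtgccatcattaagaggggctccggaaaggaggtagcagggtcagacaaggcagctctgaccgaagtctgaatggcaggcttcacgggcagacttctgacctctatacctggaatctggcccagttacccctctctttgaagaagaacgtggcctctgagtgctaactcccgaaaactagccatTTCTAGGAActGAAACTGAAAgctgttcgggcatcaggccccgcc
B2m: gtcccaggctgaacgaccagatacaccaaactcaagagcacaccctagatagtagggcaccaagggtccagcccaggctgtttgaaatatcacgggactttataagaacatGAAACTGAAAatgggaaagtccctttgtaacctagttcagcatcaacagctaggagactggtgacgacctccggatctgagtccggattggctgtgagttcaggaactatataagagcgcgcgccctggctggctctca
All 4 hold the first motif, which 978 of 32851 promoters (2.98%) hold in this window, and Tgtp1 and Igtp also hold the second, present in 2306 promoters (7.02%). A chromosome that carries none of the genes searched was left out of these 32851 promoters. In Tgtp1 and Igtp both motifs lie side by side, and in H2-T22 the match is on the other strand. The first motif begins 77 bases before the start in Tgtp1, 191 in H2-T22, 34 in Igtp and 139 in B2m. The RefSeq start of Tgtp1 lies inside the GENCODE span given for the gene above, so the annotations differ on where it starts. The promoters were chosen with the motif matches in view: of the others searched, Irgm1 and Gbp2 hold the first motif in this window, and H2-K1, Psmb9 and Cd68 hold neither.

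Lymphocyte and MHC class II transcripts gave the largest median change of any list, and their changes rested on few libraries. Of the 15 listed genes, only the 7 that averaged at least 1 TPM over all libraries were tested. A few high libraries can carry a gene past that filter, so the counts are not independent of it. Iglc1, for instance, was listed at 0 in 17 of the 20 mock libraries and reached 146.0 TPM. All 7 tested genes had a positive slope with an unadjusted p under 0.05, against 3.23% of all genes, with a median change of 1.48. The median was 0.87 without replicate 5 at 8 wk, and 0.76 with no filter. Without the 8 wk groups it was 0.54, with 1 such gene. Cd74 was at 7.55, 9.18, 7.64, 3.87 and 6.06 TPM at 2 wk and at 4.47, 7.24, 4.41, 10.3 and 3.12 TPM at 4 wk. It was at 25.3, 10.1, 9.58, 7.43 and 5.45 TPM at 6 wk and at 30.4, 8.54, 12.5, 8.89 and 168.7 TPM at 8 wk. The change of Cd74 was 1.68 ± 0.392 (adjusted p = 0.0994), and 1.03 without replicate 5 at 8 wk. Igkc, the immunoglobulin kappa constant gene and a mark of plasma cells, was at 98.6 TPM in replicate 1 at 6 wk and 425.6 TPM in replicate 5 at 8 wk. Igkc stayed at or below 10.6 TPM in the 18 other mock libraries. The T cell receptor gene Trbc1 was listed at 0 in 17 of the 20 mock libraries and was at 2.46 TPM in replicate 5 at 8 wk, where the T cell gene Cd3e was at 1.35 TPM.

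**Figure D2:**
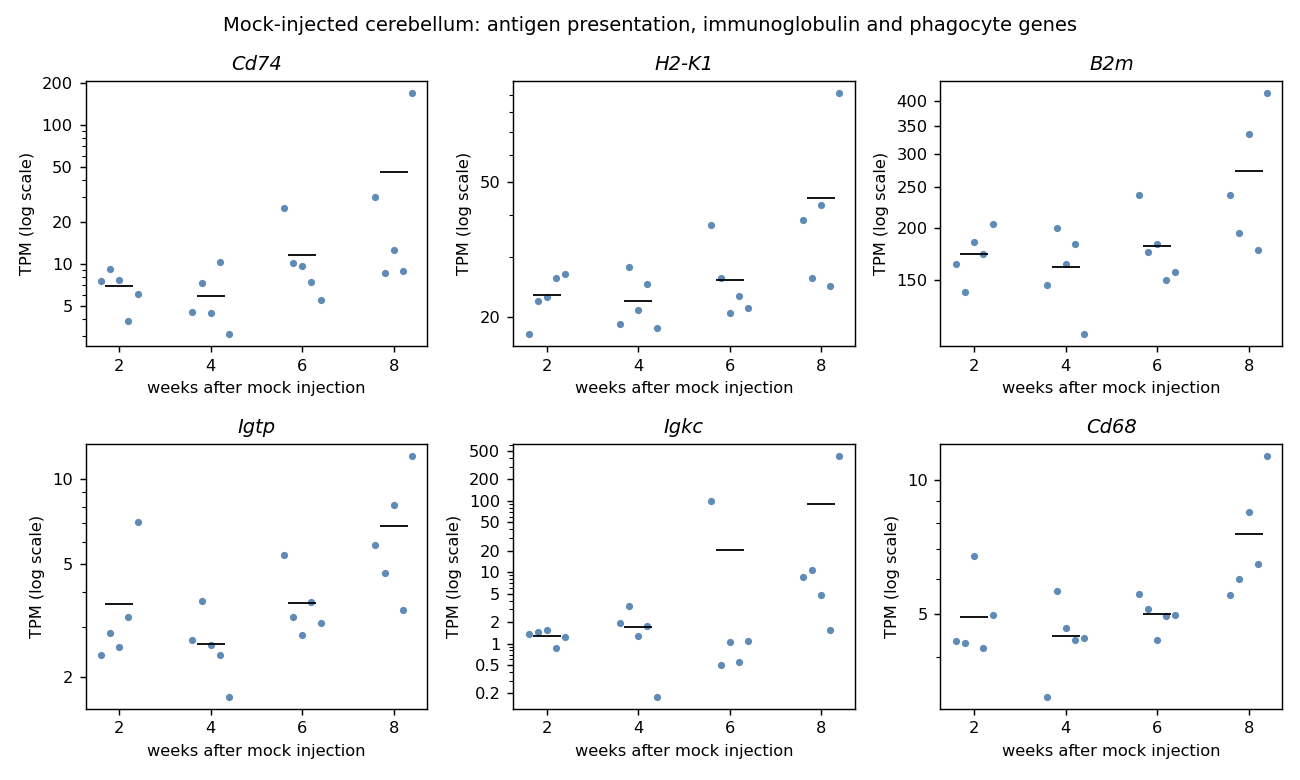
TPM on a log axis for Cd74, H2-K1, B2m, Igtp, Igkc and Cd68, with one point per mock library against weeks after mock injection and a dash for the mean of 5 (replicates 1 to 5 from left to right). Replicate 5 at 8 wk is the highest point in each panel, and Igkc has a second high library, 98.6 TPM, at 6 wk.

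Microglial genes had smaller positive changes. Of 17 tested microglia genes, 11 had a positive slope with an unadjusted p under 0.05 (3.23% of all genes) and 1, Fcrls, a negative one (5.91% of all genes), with a median change of 0.33. Without replicate 5 at 8 wk the first count was 4, with a median of 0.205, and without the 8 wk groups it was 0, with a median of 0.13. The lysosomal Cd68 was at 4.92 ± 1.08, 4.46 ± 0.847, 4.99 ± 0.424 and 7.57 ± 2.41 TPM over the 4 weeks in order (SD, n = 5 each; fitted change 0.50 ± 0.128, adjusted p = 0.182), with its highest libraries, at 11.4 and 8.51 TPM, again replicates 5 and 3 at 8 wk. C1qa, a subunit of the first complement component, had a change of 0.56 ± 0.164 (adjusted p = 0.261), and C4b, a complement gene of glia known to rise with age, 0.83 ± 0.257 (adjusted p = 0.278). Without replicates 3 and 5 at 8 wk the median change of the microglia list was 0.105, with 1 gene under an unadjusted p of 0.05, and that of the MHC class I list was 0.25, with 3 genes. In bulk tissue, more cells of a type and more RNA per cell cannot be told apart. Immunoglobulin transcripts were high together with these genes in replicate 5 at 8 wk, with Igkc at 425.6 TPM, but not in every library. Replicate 1 at 6 wk held Igkc at 98.6 TPM, while Cd68 was at most 5.55 TPM at 6 wk. Replicate 3 at 8 wk was high in Cd68 without being one of the high Igkc libraries described above. The part of immunoglobulin-bearing cells in the list changes was not tested.

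Myelin genes lay on the other side. Of 20 tested myelin genes, 19 had a negative slope and 10 of them an unadjusted p under 0.05, against 5.91% of all genes, with a median change of -0.17. The count was 6, with a median of -0.12, without replicate 5 at 8 wk. Without the 2 wk groups it was 1, with a median of -0.065, and without the 8 wk groups it was 12, with a median of -0.34. Cldn11, the claudin of myelin tight junctions, was at 145.7, 159.6, 193.4, 166.1 and 190.5 TPM at 2 wk and at 137.6, 149.9, 166.3, 161.3 and 188.9 TPM at 4 wk. It was at 121.5, 133.8, 144.4, 168.7 and 150.6 TPM at 6 wk and at 162.0, 124.7, 146.3, 125.1 and 118.2 TPM at 8 wk. The groups overlapped, and replicate 1 was the highest of the 8 wk libraries. The change of Cldn11 was -0.35 ± 0.094 (adjusted p = 0.197). The raft protein gene Mal had -0.35 ± 0.101 and the tetraspanin gene Tspan2 had -0.24 ± 0.064 without passing the test (adjusted p = 0.24 and 0.197). Mbp, the myelin basic protein gene, had a change of -0.15 ± 0.070 (adjusted p = 0.498).

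In NCAC mice the same 20 myelin genes had a median change of -0.14, with 8 under an unadjusted p of 0.05, all negative, against 11.3% of all genes with a negative slope in NCAC. Cldn11 averaged 142 ± 8.45 TPM at 8 wk and 195 ± 6.81 TPM at 2 wk in NCAC (SD, n = 5 each), a fitted change of -0.37 ± 0.094 in NCAC against -0.35 ± 0.094 in mock. For 0 of the 20 genes did the mock and NCAC slopes differ at an unadjusted p under 0.05 in limma. For Cldn11 the 95% interval of the difference was -0.25 to 0.29 on the log2 scale. H2-K1, by contrast in its values, averaged 24.7 ± 2.39 TPM at 8 wk and 24.7 ± 2.86 TPM at 2 wk in NCAC (SD, n = 5 each). Oligodendrocyte precursor genes had a median change of -0.04 in mock, with 0 of 13 under an unadjusted p of 0.05 in limma.

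**Figure D3:**
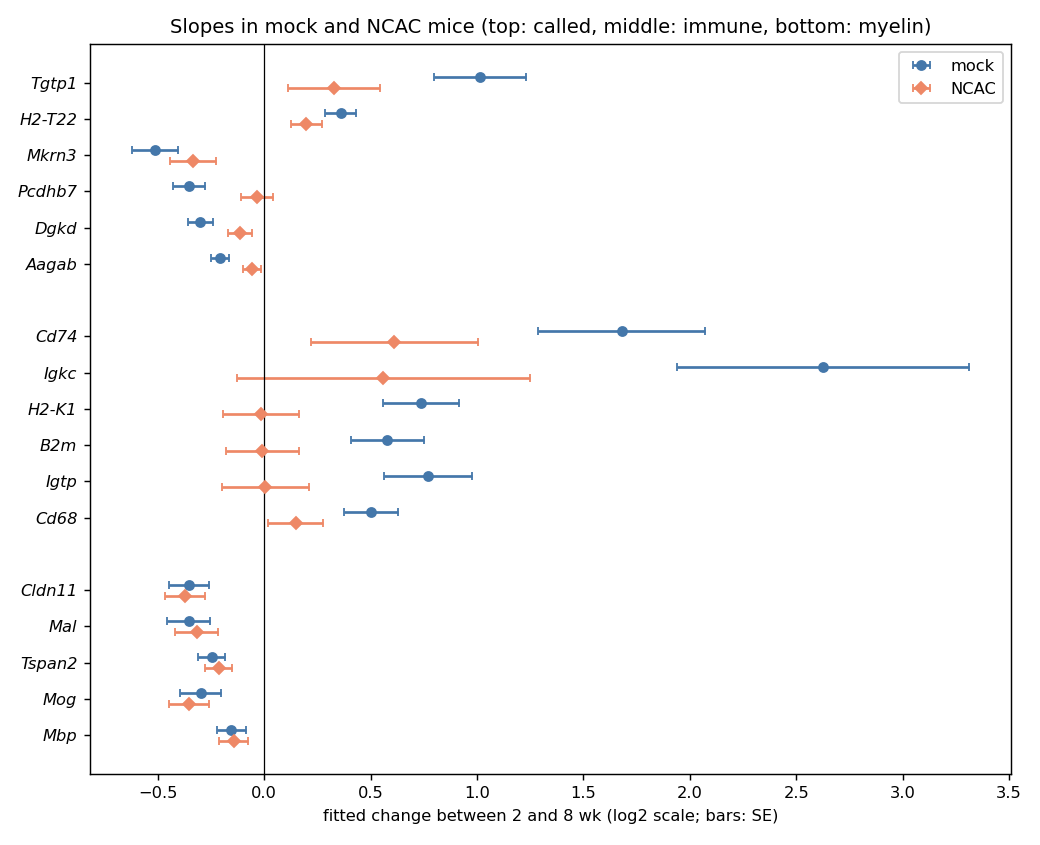
Fitted change between 2 and 8 wk on the log2 scale, with its SE, in mock (circles) and NCAC (diamonds) mice, for the 6 called genes (top), 6 immune genes (middle) and 5 myelin genes (bottom). The myelin values lie together, Cldn11 at -0.35 in mock and -0.37 in NCAC, while H2-K1 is at 0.74 in mock and -0.01 in NCAC.

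Purkinje cell genes had changes near 0. Of 15 tested Purkinje cell genes, 0 had an unadjusted p under 0.05 in limma, and the list's changes ran from -0.07 to 0.05. Pcp2 averaged 479 ± 24.5, 479 ± 14.4, 480 ± 21.2 and 498 ± 31.3 TPM over the 4 weeks in order (SD, n = 5 each), and the calcium-binding Calb1 had a change of -0.03 ± 0.041 (95% interval -0.11 to 0.05). All 17 granule cell genes had negative slopes, as had 58.4% of all genes, with a median of -0.10 against -0.02 over all genes. For 3 of them, Gabrd, Fat2 and En2, the unadjusted p was under 0.05, against 5.91% of all genes. Fat2, a giant cadherin of granule cells, averaged 276 ± 17.2, 255 ± 22.6, 239 ± 18.4 and 227 ± 24.7 TPM over the 4 weeks in order (SD, n = 5 each; change -0.28 ± 0.091, adjusted p = 0.295). In NCAC the change of Fat2 was 0.00 ± 0.091. The synaptic organiser Cbln1 had -0.19 ± 0.104 in mock (adjusted p = 0.583). Nuclear oxidative phosphorylation (46 genes, median 0.01), presynaptic release (21 genes, median 0.01), the proteasome (30 genes, median 0.00) and cholesterol synthesis (25 genes, median -0.05) had list medians near 0.

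Choroid plexus genes had a median change of 0.72 with 0 of 14 under an unadjusted p of 0.05 in limma, and they varied between libraries of each week. The mean log2 level of that list ran from 3.10 to 5.10 at 2 wk, from 1.79 to 5.13 at 4 wk, from 2.02 to 5.39 at 6 wk and from 4.60 to 5.16 at 8 wk. The 8 wk libraries were all high on this list, and the earlier weeks each held at least 1 library that was low. In NCAC all 14 had a positive slope with an unadjusted p under 0.05, against 3.76% of all genes with a positive slope there. With the choroid plexus level as a covariate, 0 of the 6 called genes were called, but their changes stayed close to the values above, from 0.95 for Tgtp1 to -0.46 for Mkrn3, with an adjusted p of 0.106 to 0.107. Of 10 ependyma and cilia genes, 4 in mock had a positive slope with an unadjusted p under 0.05 (3.23% of all genes), among them the axonemal Tekt1. The count in NCAC was also 4 (3.76% of all genes). A negative slope with an unadjusted p under 0.05 was found for 1 gene in mock (5.91% of all genes) and 1 in NCAC (11.3% of all genes). Of 12 meninges genes, 0 in mock had an unadjusted p under 0.05 in limma, with a median change of -0.14 in mock and 0.30 in NCAC. Of 11 mural cell genes, 2 had a negative slope with an unadjusted p under 0.05, against 5.91% of all genes, the smooth muscle genes Myh11 (-0.29) and Acta2 (-0.28). The immediate early genes had a median change of 0.37 in mock and -0.29 in NCAC, with 1 of 16 in mock, Junb, at an unadjusted p under 0.05 in either direction, against 9.14% of all genes. Of 62 cytosolic ribosome genes, 10 had a positive slope with an unadjusted p under 0.05, against 3.23% of all genes, with a median change of 0.03. None of these genes passed adjustment.

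**Figure D4:**
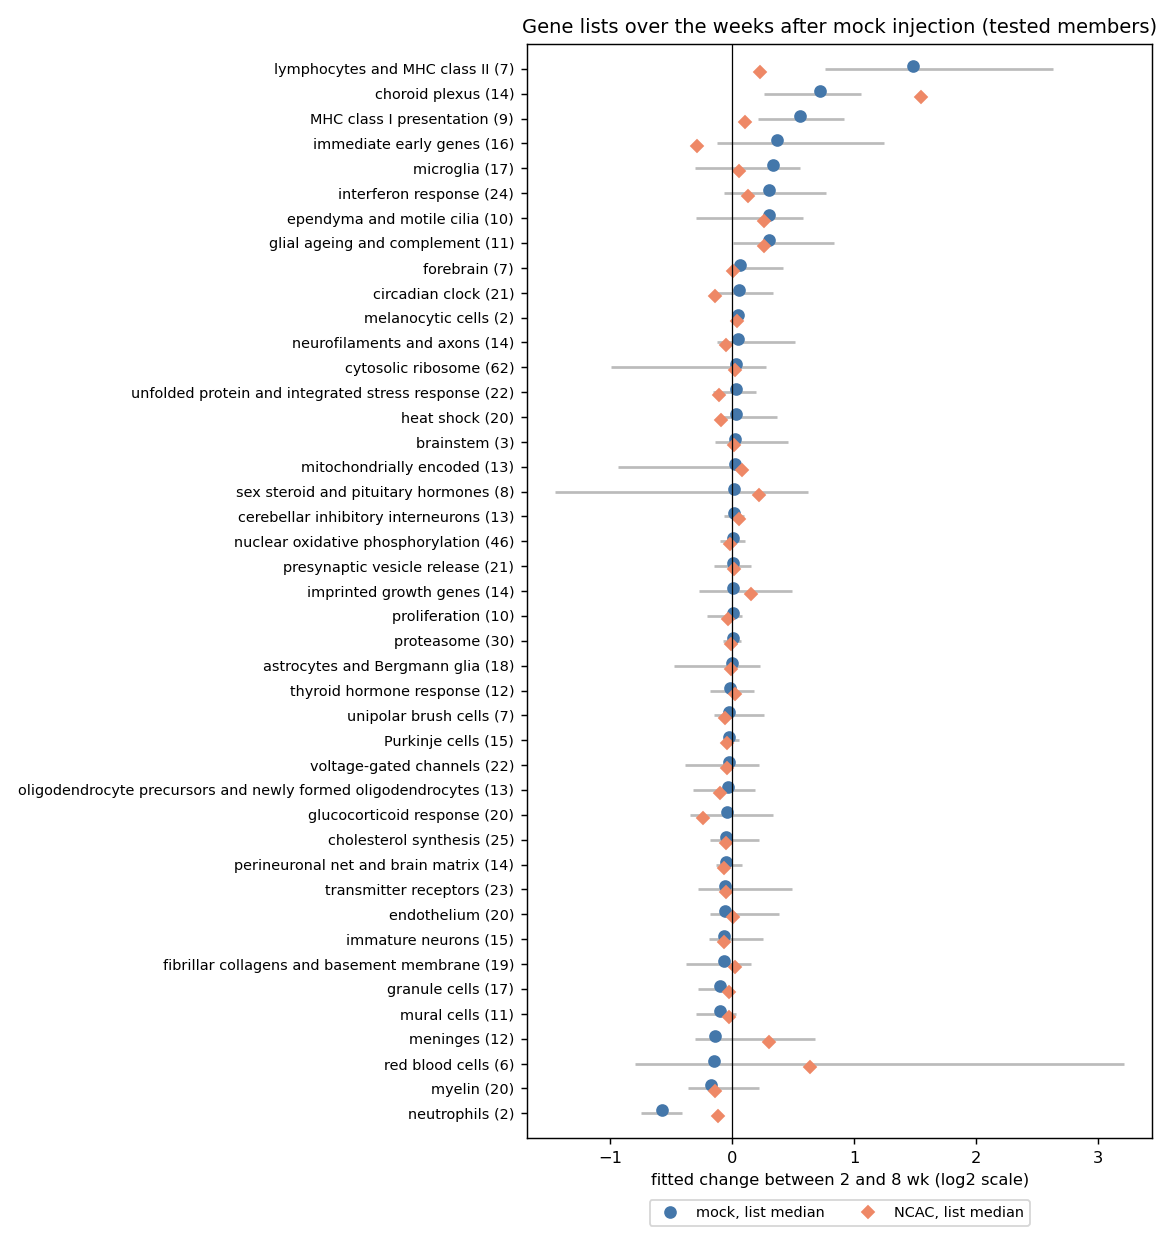
Median fitted change between 2 and 8 wk on the log2 scale for each of 43 gene lists, with the number of tested members in brackets, in mock (circles) and NCAC (diamonds) mice; grey lines run from the lowest to the highest member in mock. Most list medians lie near 0, with the lymphocyte and MHC class II list at 1.48 and the myelin list at -0.17 in mock.

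A course other than a straight line was looked for in the same fit. No gene passed the test of any difference among the 4 weeks (0 of 14399 in limma, smallest adjusted p = 0.133, with 1032 genes or 7.17% under an unadjusted p of 0.05). Nor did any pass the test of departure from the line (0 of 14399, smallest adjusted p = 0.341, with 749 genes or 5.20% under an unadjusted p of 0.05). The smallest p of departure was that of Hp1bp3, a heterochromatin protein gene, at 87.9 ± 2.83, 89.5 ± 2.30, 95.3 ± 4.14 and 86.4 ± 1.79 TPM over the 4 weeks in order (SD, n = 5 each). Some clock genes were highest at 6 wk. Cry2, a repressor of the circadian clock, averaged 69.7 ± 4.37, 79.0 ± 7.11, 83.7 ± 1.53 and 71.6 ± 8.82 TPM over the 4 weeks in order (SD, n = 5 each; adjusted p of departure = 0.917). The hour of collection is not given in the sources used here.

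The slopes of cachectic mice served as the contrast. In 334 genes (2.32%) the mock slope differed from the CAC slope at an adjusted p under 0.05 in limma, 114 with the mock slope higher and 220 with it lower. The 5 with the smallest p were Lrg1, Lcn2, Ly6c1, Vwf and Ch25h, all near level in mock. Of these, Lcn2 and Ch25h were low in mock, at 0.102 to 1.00 TPM and 0.133 to 1.03 TPM. At 8 wk in CAC they averaged 5.54 ± 3.58 and 4.72 ± 1.53 TPM (SD, n = 7 each). They passed the filter on mean TPM through the CAC libraries, so their calls are not independent of that filter. Lrg1, a secreted glycoprotein of inflammation, averaged 2.52 ± 0.469, 1.68 ± 0.677, 1.62 ± 0.317 and 1.97 ± 0.473 TPM over the 4 weeks in order in mock (SD, n = 5 each), a change of -0.22 ± 0.241. The difference of the mock and CAC changes was -2.42 ± 0.330 for Lrg1 (adjusted p = 1.81e-05). Lcn2, an acute-phase siderophore-binding protein, had a mock minus CAC difference of -2.01 ± 0.314, Ch25h, which makes an oxysterol, -1.66 ± 0.292, Vwf, the endothelial von Willebrand factor, -1.28 ± 0.207 and Ly6c1, an endothelial surface protein with close copies, -0.91 ± 0.144. The mock changes of the other 4 lay between -0.10 for Ly6c1 and 0.16 for Ch25h, each with an adjusted p of at least 0.792. None of the 6 genes called over the mock weeks was among the 334.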

How the data were processed

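Female mouse cerebellum was profiled by RNA-seq. Per the labels' protocols, RNA was extracted with Trizol and stranded mRNA libraries were sequenced. The authors deposited TPM values per gene symbol for 62 libraries, and all columns were assigned to samples. Per the submitters' processing notes the build was mm10. The aligner, the counter and the annotation they used: not given in the sources used here. Each library's TPM is scaled to a total of 1e+06 per library, so depth is unknown and no counting interval is given.

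Values were analysed as log2(TPM + 1) for the 14399 of 47643 symbols averaging at least 1 TPM across the 62 libraries. All 12 groups were fitted with limma 3.58.1 in R 4.3.3 (eBayes with trend, 50 residual degrees of freedom), with linear contrasts over the weeks, two-sided tests and Benjamini-Hochberg adjustment over all genes. Changes on this scale are understated for low genes. The fit was tested on simulated data. The mitochondrial share was tested with 1e+05 permutations.

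The 43 gene lists held 755 genes, 689 of them tested. The members and lists were chosen with earlier results of these data known. Named genes were those past the threshold for the mock slope and up to 5 of smallest p in the other tests that had calls; other genes were chosen after their values were seen. Positions are from GENCODE M21 and promoters from RefSeq GRCm38.p6. Near-identical or overlapping genes are uncertain, since the counting is not stated. Replicate numbers were tested as a block, although libraries of the same number showed little shared deviation. The alternatives were another pseudocount, no filter or a stricter one, 2 other scalings, sample weights, covariates, fewer groups and leaving out libraries. Those that left out 2 mock libraries at once were chosen after seeing the data.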

Additional observations from a re-analysis of the deposited data

Results flagged for a closer look

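In groups of 5, a library was singled out when its gap to the nearest other exceeded 0.71 of the group's range (Dixon's 95% value). Of 196 combinations of a gene and a mock group, 23 did so, where 1 in 20 would be about 9.8. The 49 genes were those past the threshold in the tests above and a chosen set of others, many of them picked after their values were seen. They do not match the genes named in the text: Gh, Prl and Iglc1, for instance, were not among them. They are also not independent of each other. The excess over 9.8 can therefore not be read as a result. Replicate 5 at 8 wk gave 9 of them, with Cd74 at 168.7, H2-K1 at 91.0, H2-Aa at 47.2, H2-Eb1 at 79.8, Igkc at 425.6, Tgtp2 at 10.04, Vwf at 8.20, Lrg1 at 2.80 and Cry2 at 86.8 TPM. Replicate 1 at 6 wk was high in Cd74 at 25.3, Igkc at 98.6 and Ch25h at 1.03 TPM. Replicate 5 at 2 wk was high in Igtp at 7.04 and Irgm1 at 4.31 TPM. Replicate 2 at 8 wk was high in Fat2 at 270.7, Cbln1 at 1416 and Dsc2 at 1.23 TPM. Replicate 1 at 2 wk was low in Aagab at 79.7 and high in Hsf4 at 8.37 and Mkrn1 at 115.2 TPM. The others were Lrg1 low at 1.71 TPM in replicate 4 at 2 wk, Hsf4 high at 10.2 TPM in replicate 2 at 4 wk and Ciart high at 35.4 TPM in replicate 2 at 6 wk.

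The slopes of mock and CAC mice differed by the test of the difference in 334 genes. The difference of the changes between 2 and 8 wk, mock minus CAC, was -2.42 for Lrg1, -2.01 for Lcn2, -0.91 for Ly6c1, -1.28 for Vwf and -1.66 for Ch25h on the log2 scale.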

How the results depend on the processing

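The 6 calls over the mock weeks sat at the edge of the threshold. The count was 0 without a filter, with a choroid plexus covariate, in the mock libraries alone by either fit, in mock and NCAC alone, without the 2, 6 or 8 wk groups, and, chosen after seeing the data, without mock replicates 3 and 5 at 8 wk or replicate 1 at 6 wk and 5 at 8 wk. It was 1 with a pseudocount of 0.1, 3 with a replicate block and 80 with sample weights, and 0 to 14 with 1 mock library left out, the highest without replicate 4 (14) or 2 (12) at 8 wk. It was 7, with 4 of the 6 among them, without mock replicate 5 at 2 wk and replicate 2 at 4 wk, also chosen after seeing the data. Median-of-ratios and quantile scaling and removal of the mitochondrial genes each kept all 6, and in each alternative every tested one of the 6 kept its sign. Calls of any change were 51 with sample weights and 0 to 8 with 1 library left out (8 without replicate 2 at 8 wk). Mock against CAC slopes gave 156 calls without a filter, 63 with a replicate block, 973 with sample weights and 94 to 739 with 1 library left out, the lowest without mock replicate 1 at 8 wk and the highest without CAC replicate 3 at 8 wk. NCAC slopes gave 6 calls, then 3 without a filter, 2 with quantile normalization, 1 each with median-of-ratios scaling, a replicate block, mitochondrial genes removed or a choroid plexus covariate, 191 with sample weights and 1 to 22 with 1 library left out, the highest without NCAC replicate 4 at 2 wk. The mitochondrial slope was 0.0507 to 0.152 with 1 library left out, with a permutation p of 0.0479 at the highest, without replicate 2 at 8 wk. The causes were not tested.

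Reversed signs were few: Col3a1 0.0173 without 2 wk, and, without 8 wk, Iigp1 -0.018, Lyz2 -0.0321 and the medians of the interferon (-0.0701) and glial ageing (-0.0087) lists. Same-numbered replicates showed little shared deviation, with a median r of 0.0347 over 30 pairs (-0.264 to 0.341). For 120 pairs of different numbers the median r was -0.025. The labels do not say whether a number stands for anything shared, and these correlations cannot settle it. Depth is unknown, and low genes such as Tgtp1 are the least precise.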

Other observations

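H2-D1, a classical MHC class I gene, lay at 9.33 to 19.3 TPM in 3 mock libraries (replicates 1 and 5 at 2 wk and replicate 4 at 6 wk) and at 94.5 to 260 TPM in the 17 others. H2-K1, another class I gene, was at 17.8, 26.9 and 23.1 TPM in those 3 libraries. The change of H2-D1 was 0.76 on the log2 scale (adjusted p = 0.722). No mock library was intermediate.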
